A study of Mus musculus with 27 samples.

Results

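The genes described here are 6 genes of the biliary epithelium, the cells that line the bile ducts of the liver: Krt7, Krt19, Epcam, Sox9, Spp1 and Cftr. They were taken by symbol from a table of 21823 protein-coding genes measured in 27 libraries, and all 6 were present once. The libraries came from female wild-type C57BL/6 mice (C57BL/6N in the study's methods) aged 8 to 14 weeks in 3 states: not pregnant (NP), 8 days post coitum (dpc8) and 16 days post coitum (dpc16). At each stage, areas of 2 mm2 of zone 1, zone 2 and zone 3 of the liver lobule were cut from frozen sections 5 µm thick with a laser, with 3 libraries for each of the 9 groups of stage and zone. Zone 1 lies by convention around the portal tract and zone 3 around the central vein. The mice carried no transgene and no treatment according to the labels, which do not say whether replicates or zones with the same number came from the same mouse. The study describes its zonal replicates as independent experiments, and its methods state in general that experiments were repeated independently in different mice. The mouse of each library is not given, so p-values measure the spread between these libraries.

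Bile made by hepatocytes drains into ducts that run in the portal tract beside the portal vein. The duct cells, called cholangiocytes, carry keratins and adhesion proteins that hepatocytes lack or hold at low levels, and they add chloride and bicarbonate to the bile. They share an embryonic origin with hepatocytes, and the step that sets them apart depends on Notch signalling and on transcription factors such as Sox9. Krt7 and Krt19 encode keratins of the cytoskeleton of duct cells. Epcam encodes a cell adhesion protein of epithelia, and Cftr encodes the chloride channel that is mutated in cystic fibrosis. Spp1 encodes osteopontin, a secreted glycoprotein that is also made by some macrophages and connective tissue cells.

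On the mm10 genome build, Krt7 (ENSMUSG00000023039.17) occupies chromosome 15 from 101411043 to 101430313 on the plus strand. Krt19 (ENSMUSG00000020911.14) lies on chromosome 11 from 100140810 to 100148665 on the minus strand, and Sox9 (ENSMUSG00000000567.5) lies on the same chromosome from 112782224 to 112787760 on the plus strand. Epcam (ENSMUSG00000045394.9) spans 87635979 to 87651129 of chromosome 17 on the plus strand. Spp1 (ENSMUSG00000029304.14) spans 104435118 to 104441050 of chromosome 5, and Cftr (ENSMUSG00000041301.15) spans 18170687 to 18322768 of chromosome 6, both on the plus strand. The positions are those of GENCODE vM21, which also marks Cftr as overlapping another locus. Whether the authors' counting used strand is not given in the sources used here, so reads of that locus could not be told apart from those of Cftr.

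The start regions of Spp1 and Epcam are shown because the levels of these genes parted in several libraries described below. Each window holds 300 bases around a RefSeq transcript start on GRCm38.p6, most of them before the start, printed 5′ to 3′ on the plus strand. Capitals mark matches on either strand to TGGGAA (the core bound by RBPJ, the DNA-binding partner of Notch), GGAATG (TEAD) or ACAAAG (SOX factors).
Spp1, chr5:104434861-104435160: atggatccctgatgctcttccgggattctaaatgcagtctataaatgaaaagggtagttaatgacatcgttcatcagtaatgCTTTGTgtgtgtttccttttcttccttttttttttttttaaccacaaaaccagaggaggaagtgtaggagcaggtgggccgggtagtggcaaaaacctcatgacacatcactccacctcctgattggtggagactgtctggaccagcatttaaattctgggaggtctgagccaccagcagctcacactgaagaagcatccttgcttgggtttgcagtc
Epcam, chr17:87635729-87636028: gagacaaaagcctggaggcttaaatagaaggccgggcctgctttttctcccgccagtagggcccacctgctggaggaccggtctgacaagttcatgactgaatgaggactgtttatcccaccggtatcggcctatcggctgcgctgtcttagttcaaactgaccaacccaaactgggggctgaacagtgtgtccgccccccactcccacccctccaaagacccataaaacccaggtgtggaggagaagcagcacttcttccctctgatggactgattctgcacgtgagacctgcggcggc
The Spp1 window held 1 match to ACAAAG, read as CTTTGT on the printed strand. The Epcam window held no match to any of the 3. Of 32817 start windows of the same length, 18.7% held ACAAAG, 25.6% held TGGGAA and 14.7% held GGAATG. A match of letters is a description and not evidence that a factor binds. A further Spp1 start window, chr5:104435942-104436241, not printed here, also held 1 match to ACAAAG. RefSeq windows were also at hand for Krt7 and Cftr, and these held no match. Those of Krt19 and Sox9 were not analysed here.

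Expression is given as FPKM, reads scaled to the length of the transcript and to the mapped reads of the library. The table holds no read counts, but low values fell on steps that correspond to an estimated 7.53 to 33.3 M mapped (M for the prefix mega) reads per library, and 1 read on a kilobase of transcript was then worth 0.0300 to 0.133 FPKM. An FPKM of 1.26 for Epcam in the shallow first library of dpc16 zone 1 rested on about 24 reads, so a value listed at 0 means not detected at this depth. Laser-cut areas hold several cell types, and fewer duct cells in an area cannot be told apart from less RNA per duct cell.

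The libraries bore the zonation that their labels give. Glul, the glutamine synthetase of hepatocytes next to the central vein, lay between 1349 and 3264 FPKM in the 9 zone 3 libraries and at most at 184 elsewhere. Hal, an enzyme of histidine breakdown in periportal hepatocytes, lay between 209 and 662 in the 9 zone 1 libraries and at most at 29.6 in zone 3. Although all mice are labelled female, the summed FPKM of Uty, Kdm5d, Ddx3y and Eif2s3y, genes of the Y chromosome, was 7.92 to 23.2 in 6 libraries against at most 2.97 in the other 21. These 6 were replicate 1 of NP zone 1, replicate 2 of NP zone 3, replicate 1 of dpc8 zone 1, replicate 2 of dpc8 zone 2, and replicate 3 of dpc16 zones 2 and 3. A list of 13 fibroblast and smooth muscle genes summed to 1092 to 5239 FPKM in these 6 libraries and to 87.4 to 591 in the other 21. The zone differences of the tested members averaged over the stages are given below with and without them.

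Replicate 1 of NP zone 3 also stood apart. It held the highest Krt7, Krt19 and Cftr levels of all 27 libraries, together with 37 genes that reached 1 FPKM and at least 3 times every other library, a set that includes Cftr. Among these were Cdx2, a transcription factor of intestinal epithelium, at 1.31 FPKM against at most 0.191 elsewhere, and Phgr1, a gene of the same epithelium, at 6.71 FPKM and 0 elsewhere. Both were singled out after their values were seen. On the list of 6 intestinal genes read below, which includes Cdx2, this library summed to 54.8 FPKM, under the median of 58.3 over the 27 libraries. Of that list, Vil1 stood at 1.60 in it, under 2.11 in replicate 1 of NP zone 2, with Muc2 at 0.419 and Reg3g at 0. Other libraries held between 1 and 49 such genes. Keratins, Epcam and Cftr are shared by intestinal and duct epithelium, and the part of this library's other genes in the member levels was not tested.

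**Figure D1:**
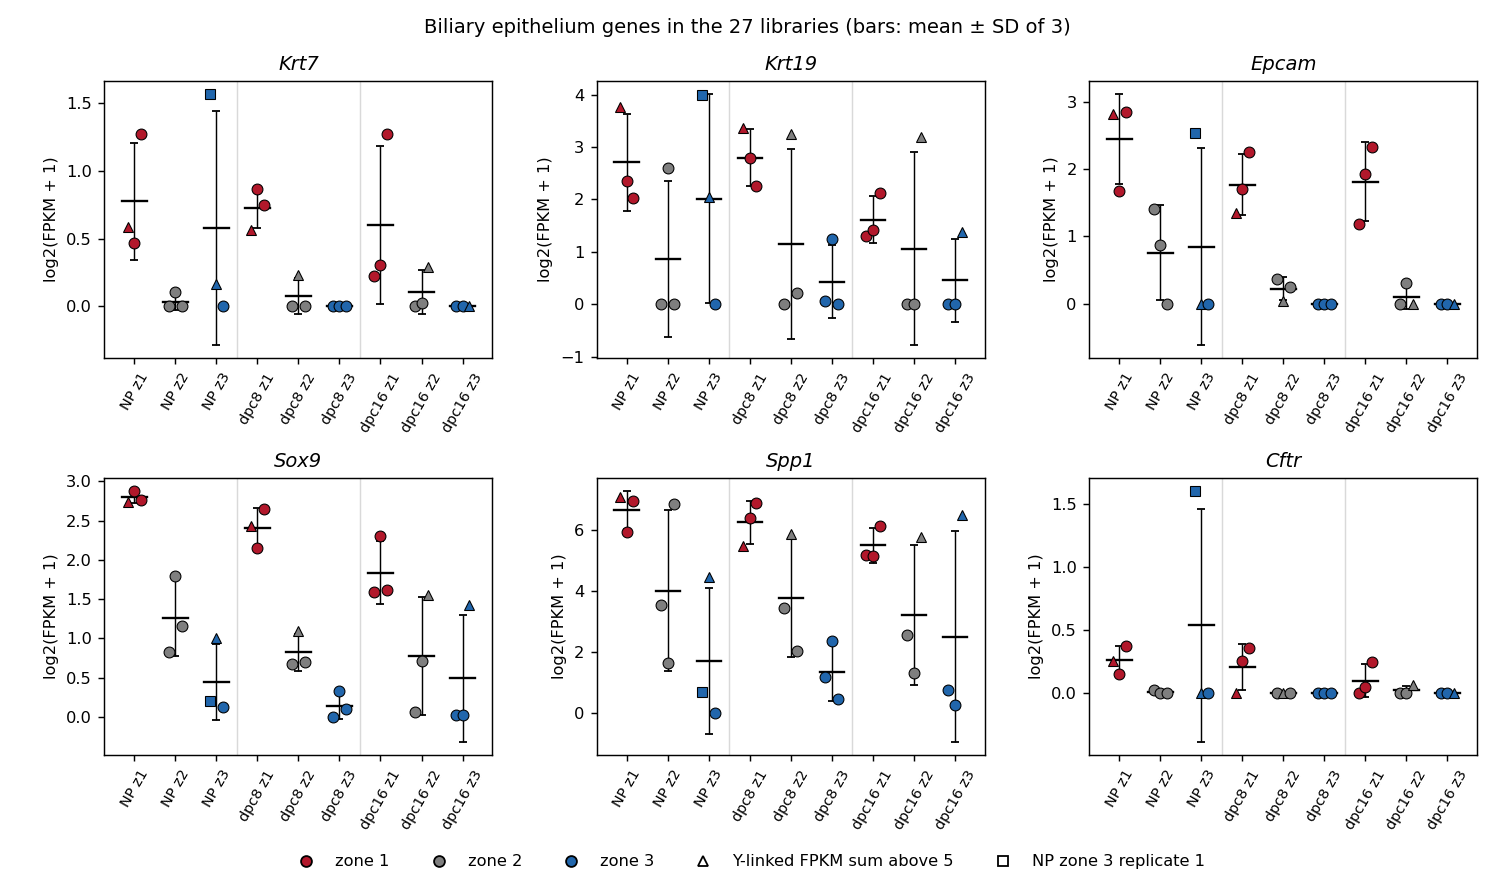
Level of each of the 6 genes on the log2(FPKM + 1) scale in the 27 libraries, by stage (NP, dpc8, dpc16) and zone (z1, z2, z3). Points are libraries, horizontal bars are means of 3 and vertical bars are SD. Zone 1 libraries (red) hold Sox9 between 2.02 and 6.37 FPKM, while 8 of the 9 zone 3 libraries (blue) hold no Epcam and the square, replicate 1 of NP zone 3, holds 4.79 FPKM.

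Sox9, the transcription factor of duct cells and their progenitors, was the member with the cleanest separation of zones. In NP zone 1 its FPKM was 5.69, 6.37 and 5.78, in NP zone 2 it was 0.778, 2.46 and 1.24, and in NP zone 3 it was 0.155, 1.01 and 0.0884. Each NP zone 1 library lay above each NP zone 2 and zone 3 library. At dpc8 the values were 4.38, 3.44 and 5.25 in zone 1, 0.594, 1.14 and 0.623 in zone 2, and 0, 0.259 and 0.076 in zone 3. The 3 zones did not overlap at dpc8, in the order of their numbers. At dpc16 the values were 2.02, 3.95 and 2.06 in zone 1, 0.043, 0.633 and 1.93 in zone 2, and 0.0189, 0.0145 and 1.69 in zone 3. The last value of zone 2 and the last of zone 3 at dpc16 come from libraries with Y-linked and connective tissue genes. The 9 zone 1 libraries all lay between 2.02 and 6.37 FPKM, and without those with Y-linked genes the highest zone 3 value fell from 1.69 to 0.259.

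The zone 1 level of Sox9 exceeded the zone 3 level beyond the replicate spread at NP and dpc8. The difference on the log2(FPKM + 1) scale was 2.35 ± 0.39 (SE) at NP, with an adjusted p of 0.000955 by limma over 12952 genes, and 2.26 ± 0.39 at dpc8, with an adjusted p of 0.00142. At dpc16 it was 1.35 ± 0.39 and did not pass (adjusted p = 0.105). Without the libraries with Y-linked genes the dpc16 difference was 1.82 and passed, with an adjusted p of 0.00245. Leaving out only replicate 3 of dpc16 zone 3 gave the same difference and an adjusted p of 0.0124. With same-numbered libraries as a block, a pairing taken from the data and not from the labels, the adjusted p was 0.0391. Averaged over the stages, Sox9 differed by 1.99 ± 0.22 between zones 1 and 3 (adjusted p = 1.77e-06) and by 1.39 ± 0.22 between zones 1 and 2 (adjusted p = 0.00117). Without the libraries with Y-linked genes these were 2.24 (adjusted p = 2.57e-07) and 1.58 (adjusted p = 0.000117). The call between zones 1 and 2 was lost with a pseudocount of 0.1 in place of 1, where the difference was 2.19 (adjusted p = 0.0588).

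Epcam was detected in all 9 zone 1 libraries and in 1 of the 9 zone 3 libraries. Its FPKM in NP zone 1 was 6.06, 2.18 and 6.24, against 1.64, 0.826 and 0 in zone 2 and 4.79, 0 and 0 in zone 3. The zone 3 value of 4.79 belongs to replicate 1 of NP zone 3, and it alone kept NP zones 1 and 3 from separating. At dpc8 Epcam stood at 1.54, 2.26 and 3.78 in zone 1, at 0.293, 0.0239 and 0.19 in zone 2, and was listed at 0 in all zone 3 libraries. At dpc16 it stood at 1.26, 2.8 and 4.04 in zone 1, at 0, 0.236 and 0 in zone 2, and again at 0 in zone 3. Zone 1 lay above zones 2 and 3 without overlap at both pregnant stages.

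Averaged over the stages, Epcam was higher in zone 1 than in zone 3 by 1.73 ± 0.29 on the log2(FPKM + 1) scale (limma, adjusted p = 0.000395) and higher than in zone 2 by 1.65 ± 0.29 (adjusted p = 0.00304). A difference from a group at 0 depends on the pseudocount and is no bound on the fold. At single stages the differences from zone 3 were 1.60 ± 0.51 at NP, 1.77 ± 0.51 at dpc8 and 1.81 ± 0.51 at dpc16, with adjusted p-values of 0.191, 0.0906 and 0.0851. Without replicate 1 of NP zone 3, the only zone 3 library with Epcam, the NP difference was 2.45 and passed, with an adjusted p of 0.00129. Without the libraries with Y-linked genes it was 0.997 (adjusted p = 0.675), and without both kinds of libraries it was 2.26 (adjusted p = 0.0890), and neither passed. Averaged over the stages, both differences still passed without the libraries with Y-linked genes, at 1.60 from zone 3 (adjusted p = 0.00618) and 1.61 from zone 2 (adjusted p = 0.0208). With the replicate block, a pairing taken from the data and not from the labels, the dpc16 difference passed, with an adjusted p of 0.0243.

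Spp1 was the most abundant member per length of transcript. Its FPKM in NP zone 1 was 134, 59.5 and 123, in NP zone 2 it was 10.6, 2.06 and 115, and in NP zone 3 it was 0.601, 20.7 and 0. At dpc8 it was 43.6, 82.5 and 116 in zone 1, 9.75, 57.3 and 3.05 in zone 2, and 1.25, 4.06 and 0.371 in zone 3. At dpc16 it was 35.3, 34.2 and 69.3 in zone 1, 4.9, 1.46 and 53.4 in zone 2, and 0.686, 0.189 and 88.3 in zone 3. The 9 zone 1 libraries held at least 34.2 FPKM. In zone 3 the highest library held 88.3, but without those with Y-linked genes the highest was 4.06, and the zone 3 median was 0.686 with all 9 libraries.

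The zone 1 level of Spp1, averaged over the stages, exceeded that of zone 3 by 4.28 ± 0.87 on the log2(FPKM + 1) scale (limma, adjusted p = 0.00285). That of zone 2 was exceeded by 2.46 ± 0.87, which did not pass (adjusted p = 0.393). Without the libraries with Y-linked genes both passed, at 5.46 (adjusted p = 7.26e-06) and 3.30 (adjusted p = 0.00595). No single stage passed with all libraries and no replicate block, with differences from zone 3 of 4.94 at NP, 4.92 at dpc8 and 2.99 at dpc16 and adjusted p-values of 0.165, 0.126 and 0.684. Without those libraries the 3 differences were 6.10, 5.30 and 4.98 and all passed (adjusted p = 0.00417, 0.00536 and 0.00835).

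**Figure D2:**
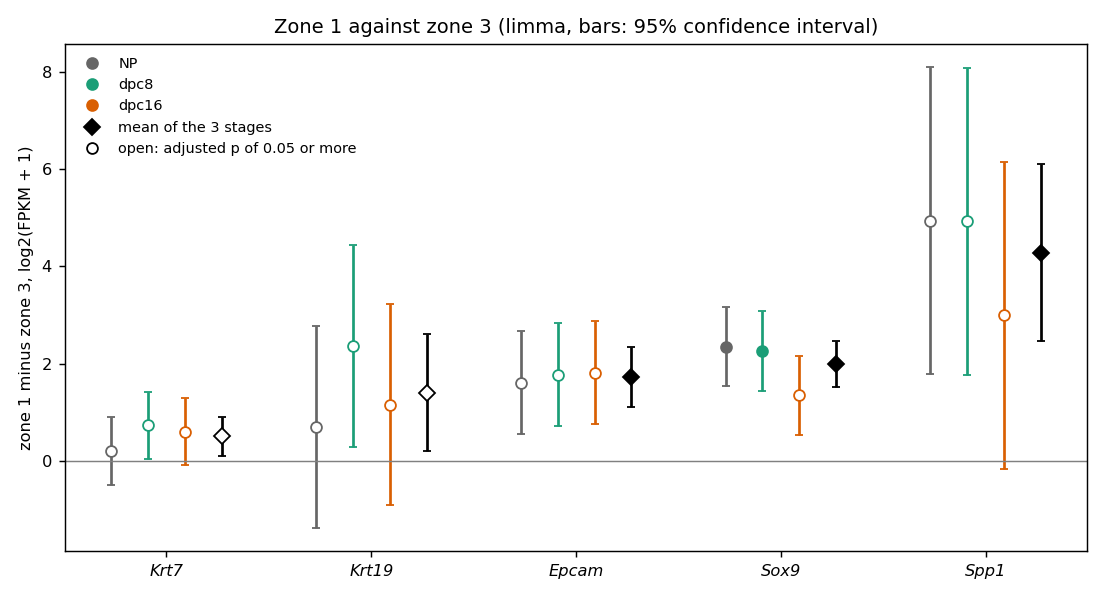
Difference between zone 1 and zone 3 on the log2(FPKM + 1) scale for the 5 members that passed the filter on low values, at each stage and as the mean of the 3 stages, with 95% confidence intervals. Filled symbols passed an adjusted p of 0.05. Sox9 at NP (2.35) and dpc8 (2.26) and the means of Epcam (1.73), Sox9 (1.99) and Spp1 (4.28) are filled.

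Krt19, the keratin most often used to mark duct cells, was detected in all 9 zone 1 libraries but also reached high values elsewhere. At NP its FPKM was 12.6, 4.09 and 3.06 in zone 1, 0, 5.02 and 0 in zone 2, and 15, 3.15 and 0 in zone 3. At dpc8 it was 9.22, 5.93 and 3.77 in zone 1, 0, 8.5 and 0.158 in zone 2, and 0.0437, 1.37 and 0 in zone 3. At dpc16 it was 1.47, 1.66 and 3.35 in zone 1, 0, 0 and 8.11 in zone 2, and 0, 0 and 1.6 in zone 3. Only at dpc8 did zone 1 lie wholly above zone 3. The values of 8.5 and 8.11 in zone 2 and of 3.15 and 1.6 in zone 3 belong to libraries with Y-linked genes, and the value of 15 to replicate 1 of NP zone 3. The highest zone 1 values, 12.6 and 9.22, also come from libraries with Y-linked genes, and without these the highest Krt19 level was 5.93 in zone 1 and 5.02 in zone 2.

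The difference of Krt19 between zones 1 and 3 did not pass the adjustment over all genes with all libraries. Averaged over the stages it was 1.40 ± 0.57, with a 95% confidence interval from 0.207 to 2.60, an unadjusted p of 0.0221 and an adjusted p of 0.201 by limma. That between zones 1 and 2 was 1.35 ± 0.57 (adjusted p = 0.633). Without the libraries with Y-linked genes the differences were 1.29 (adjusted p = 0.155) and 1.78 (adjusted p = 0.125) and did not pass. Without these libraries and without replicate 1 of NP zone 3, a choice made after the data were seen, the differences were 1.96 (adjusted p = 0.00487) and 1.78 (adjusted p = 0.0168) and passed. At NP the difference from zone 3 was 0.69 with all libraries, 0.183 without those with Y-linked genes (adjusted p = 0.985) and 2.18 without both kinds (adjusted p = 0.433). It turned to -0.32 without replicate 3 of NP zone 3, the library there with no Krt19.

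Krt7 was expressed at a low level, at most 1.97 FPKM. It stood at 0.5, 0.382 and 1.42 in NP zone 1, at 0.481, 0.825 and 0.682 in dpc8 zone 1, and at 0.171, 0.237 and 1.41 in dpc16 zone 1. In zone 2 it was at 0 in 5 of 9 libraries and at most at 0.223, and in zone 3 it was at 0 in 7 of 9. The 2 zone 3 libraries with Krt7 were replicate 1 of NP zone 3 at 1.97 and replicate 2 of NP zone 3 at 0.121. Zone 1 lay above zone 3 without overlap at dpc8 and dpc16. Averaged over the stages the difference from zone 3 was 0.51 ± 0.19 on the log2(FPKM + 1) scale and did not pass (limma, adjusted p = 0.154), and that from zone 2 was 0.63 ± 0.19 (adjusted p = 0.217). Without the libraries with Y-linked genes these were 0.50 and 0.74 and did not pass (adjusted p = 0.246 and 0.172). With a pseudocount of 0.1, which weighs low values more, these were 2.12 and 2.27 and passed, with adjusted p-values of 0.0188 and 0.0434.

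Cftr was near the limit of detection and did not pass the filter of 1 FPKM in at least 3 libraries. Its FPKM was 0.192, 0.107 and 0.296 in NP zone 1, 0, 0.194 and 0.278 in dpc8 zone 1, and 0, 0.032 and 0.186 in dpc16 zone 1. These values rest on at most about 40 reads each. Outside zone 1 it was at 0 in 7 of 9 zone 2 and 8 of 9 zone 3 libraries. The exception in zone 3 was replicate 1 of NP zone 3 at 2.05, about 146 reads. Fitted without the filter, the zone 1 and zone 3 levels differed by 0.01 ± 0.14 averaged over the stages (limma, adjusted p = 1), with -0.28 at NP, 0.20 at dpc8 and 0.10 at dpc16. That average was set by replicate 1 of NP zone 3. Without it, a choice made after the data were seen, the NP difference was 0.26 (adjusted p = 0.244) and the average 0.19, which passed (adjusted p = 0.0166). The library left out was the only one in zone 3 with Cftr, so all zone 3 values were then 0. The difference could no longer fall below 0, so this pass carries no weight as a test of zones.

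Together, 2 of the 6 members lay above zone 3 without overlap in NP zone 1, where 6.63% of the 12952 tested genes did so. At dpc8 these were 5 of 6 members against 12.8% of the tested genes, and at dpc16 3 of 6 against 8.36%. Cftr was counted among the 6 but not among the tested genes. Krt7, Epcam and Sox9 did not overlap between zones 1 and 2 at dpc8, and these together with Cftr at NP. At dpc16 Krt7 overlapped, through replicate 3 of zone 2, and Epcam and Sox9 did not. Of all tested genes 4.96% at NP, 4.42% at dpc8 and 4.86% at dpc16 lay higher in zone 1 than in zone 2 without overlap.

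Ordered by the group mean, the 3 highest of the 9 groups were the zone 1 groups for Sox9 and Spp1, both in the order NP, dpc8, dpc16, and for Epcam in the order NP, dpc16, dpc8. For Krt7, Krt19 and Cftr the NP zone 3 group, through its replicate 1, was among the 3 highest. Neighbours in these orders overlapped for all 6 members, with the exception of Sox9 in NP zone 1, which lay above dpc8 zone 1.

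By the limma test, the members called higher in zone 1 than in zone 3 were 1 of 5 at NP, where 0.525% of all genes tested were called in that direction, 1 of 5 at dpc8, where 0.679% were, and none at dpc16, where 0.78% were. With same-numbered libraries as a block, a pairing taken from the data, 2 of 5 were called at dpc16, Sox9 and Epcam, beside 1.48% of all genes. At an unadjusted p under 0.05 the counts were 3, 5 and 2 of 5, beside 1039, 1581 and 1018 of all 12952 genes. Averaged over the stages 3 of 5 were called, Sox9, Epcam and Spp1, beside 2.7% of all genes, and against zone 2 it was 2 of 5, Sox9 and Epcam, beside 0.51%. Epcam reached 1 FPKM in 9 zone 1 libraries and in 1 library of each other zone, so it passed the filter through zone 1. The median difference of the 5 members between zones 1 and 3 was 1.73 averaged over the stages, against 0.04 over all genes tested. No member was called between zones 1 and 2 at a single stage, where 0.0463% of all genes were called higher in zone 1 at NP, 0.0232% at dpc8 and 0.0772% at dpc16, while 3, 2 and 2 of the 5 had an unadjusted p under 0.05, beside 691, 441 and 664 of the 12952. Nor was any member called between zones 2 and 3, where 0.224% of genes were called higher in zone 2 at NP, 0.131% at dpc8 and 0.201% at dpc16, and of the 5 only Sox9 at NP had an unadjusted p under 0.05 (0.0475). Cftr, fitted without the filter, differed by -0.53 in zone 2 from zone 3 at NP, with an unadjusted p of 0.0470 and an adjusted p of 0.723, through replicate 1 of NP zone 3.

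The ratio of Spp1 to Epcam within a library was compared between zones. In the 9 zone 1 libraries the FPKM of Spp1 was between 12.2 and 36.5 times that of Epcam, with a median of 27.3. Of the zone 2 libraries, replicates 1 and 3 of dpc8 lay within that range, at 33.3 and 16, and replicates 1 and 2 of NP and replicate 2 of dpc16 lay below it, at 6.47, 2.49 and 6.17. In replicates 1 and 3 of dpc8 and replicate 2 of dpc16, Epcam rested on about 7 reads each. Replicate 1 of dpc16 zone 2 had no ratio, with Spp1 at 4.90 and Epcam at 0. In replicate 2 of dpc8 zone 2, a library with Y-linked genes, it was 2394 times that of Epcam, where Epcam rested on about 1 read. Spp1 stood at 115 in replicate 3 of NP zone 2, at 53.4 in replicate 3 of dpc16 zone 2, at 20.7 in replicate 2 of NP zone 3 and at 88.3 in replicate 3 of dpc16 zone 3, all with Epcam at 0. The opposite was seen in replicate 1 of NP zone 3, with a ratio of 0.126.

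Genes of other cells were read in the 5 libraries that held Spp1 at 20.7 FPKM or more with no or almost no Epcam, and they differed among these libraries. Gpnmb, a glycoprotein of lipid-laden macrophages, stood at 33.9 and 39.1 FPKM in replicate 3 of dpc16 zones 2 and 3, against at most 12.2 in any other library, and at 0 to 3.56 in the other 3 of the 5. It was singled out after its values were seen, and no other gene of its list of 9 was highest there. Trem2, a receptor of the same macrophages, stood at 0.596 and 0.945 against up to 1.96 elsewhere, and Cd9 at 31.5 and 45.5 against up to 121. Csf1r and Vsig4, general macrophage and Kupffer cell genes, stood at 10.5 and 4.53 in the zone 2 library and had their lowest levels of all, 3.8 and 4.53, in the zone 3 library. Clec4f, which defines Kupffer cells, stood at 15.5 in the zone 2 library, against 60.6 and 57.7 in the other dpc16 zone 2 libraries, and at 9.7 in the zone 3 library, close to the 12.3 and 12.9 of the other dpc16 zone 3 libraries. The 9 genes of the list summed to 110 and 111 FPKM in those libraries, within the range of 88.6 to 299 over all 27. In replicate 3 of NP zone 2, in contrast, the macrophage list had its highest sum, 299, with Clec4f at 121 and Gpnmb at 0, and its Y-linked sum was 2.24. Fibroblast and smooth muscle genes summed to 1092 to 5239 in the other 4 of these libraries and to 160 in replicate 3 of NP zone 2. The part of any of these in the Spp1 level was not tested.

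**Figure D3:**
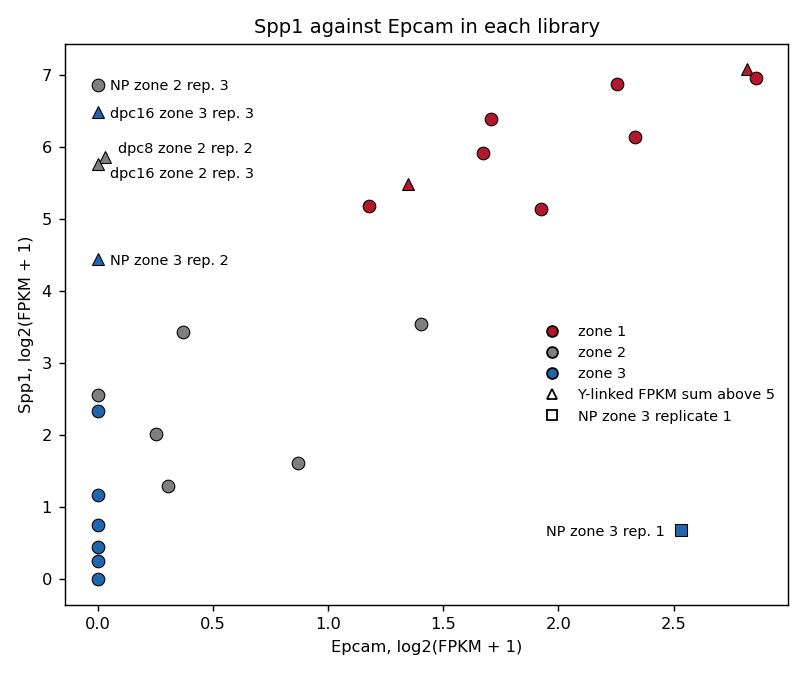
Spp1 against Epcam on the log2(FPKM + 1) scale in the 27 libraries, coloured by zone. Triangles are libraries whose Y-linked genes sum to over 5 FPKM and the square is replicate 1 of NP zone 3. The 9 zone 1 libraries lie at the upper right with at least 34.2 FPKM of Spp1 and 1.26 of Epcam, 5 named libraries hold Spp1 with almost no Epcam, and the square holds Epcam at 4.79 with Spp1 at 0.601.

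Hepatocyte genes dominated every library, with Alb at 22396 to 203747 FPKM and Trf at 8135 to 45419. Of the zonal hepatocyte lists the most abundant genes were Ass1 (99.4 to 2996) and Pck1 (106 to 2196) for periportal and Cyp2e1 (49.9 to 11838) and Glul for pericentral cells. Tagln and Acta2 of smooth muscle reached 2271 and 1857. Ecm1 and Colec11 of stellate cells (54.6 to 229 and 7.43 to 43.5), Clec4g and Eng of endothelium (17.2 to 56.2 and 12.7 to 55.8) and Cd9 of the macrophage list (10.3 to 121) were present in all libraries.

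Markers of other epithelia and coverings were low. Of 8 genes of squamous and urothelial epithelium, Upk2 was at 0 in all libraries, Krt5 and Trp63 reached at most 0.0749 and 0.336, Upk1a reached 0.647, and Dsp, a desmosomal protein that hepatocytes share, was the only one over 1 FPKM. The sum of that list was 7.99 to 28.7. Of 7 mesothelial genes, Msln and Upk1b reached at most 2.51 and 2.54 and the sum of the list 8.57, in replicate 3 of dpc16 zone 3. The pancreatic enzyme genes Pnlip and Prss2 were at 0 throughout, and the sum of that list, 3.97 to 80.0, rested on Cela1, with Cpa1 at most at 0.166. Of 6 intestinal genes Reg3g was at 0, and the sum, 18.6 to 169, rested mostly on Fabp2, which hepatocytes also express, with Lgr5 at most at 8.49. The exception was replicate 1 of NP zone 1, the library with the highest zone 1 levels of Krt19 and Spp1, where Fabp2 stood at 9.38, Muc2, the mucin of goblet cells, at 7.43 and Lgr5 at 6.05. Muc2 reached at most 0.419 in any other library, whereas Lgr5 stood at 3.80 to 8.49 in every zone 3 library. The part of these genes in the member levels was not tested.

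Pregnancy was compared with NP in each zone to ask whether the duct genes changed with gestation. In zone 1 the mean FPKM of Sox9 was 5.95 ± 0.37 (SD, n = 3) at NP, 4.36 ± 0.91 at dpc8 and 2.68 ± 1.10 at dpc16. The NP libraries lay above those of both other stages, and the dpc16 libraries overlapped those of dpc8. Spp1 stood at 105 ± 40, 80.6 ± 36.1 and 46.3 ± 19.9, with overlap between each pair of stages. Krt19 stood at 6.58 ± 5.23, 6.31 ± 2.75 and 2.16 ± 1.04, and Epcam at 4.83 ± 2.29, 2.53 ± 1.14 and 2.70 ± 1.39. Krt7 stood at 0.766 ± 0.566, 0.662 ± 0.173 and 0.606 ± 0.698, and Cftr at 0.198 ± 0.095, 0.157 ± 0.143 and 0.0726 ± 0.0994. Among these 4 genes the stages overlapped, except that Krt19 lay higher in each dpc8 library than in each dpc16 library, a pair that was not tested. By such separation 1 of 6 members was higher at NP than at dpc8 (Sox9), 1 of 6 at NP than at dpc16 (Sox9) and 1 of 6 at dpc8 than at dpc16 (Krt19), beside 2.92%, 8.01% and 10.1% of the 12952 tested genes, and 3.6%, 9.42% and 9.8% of genes were separated the other way.

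None of these stage differences passed the limma test. For dpc16 against NP in zone 1 the differences on the log2(FPKM + 1) scale were -0.17 for Krt7, -0.64 for Epcam, -0.96 for Sox9, -1.10 for Krt19 and -1.16 for Spp1, all below 0, where 1.37% of all genes tested were called in either direction. For Krt19 the NP side held 12.6 FPKM in replicate 1, a library with Y-linked genes, and 4.09 and 3.06 in the others. The hepatocyte list, led by Alb, summed to 46931 to 118994 FPKM in the NP zone 1 libraries and to 214460 to 259782 in the dpc16 ones, without overlap, and its part in these differences was not tested. The closest to the threshold was Sox9 with an unadjusted p of 0.0225 and an adjusted p of 0.333, and its 95% confidence interval ran from -1.77 to -0.14. When FPKM were rescaled to the same sum in each library (TPM), the median of all genes in this comparison moved from -0.05 to -0.57, and Sox9 from -0.96 to -1.52 (adjusted p = 0.0918), so relative to that median Sox9 differed by about the same amount. The Krt7 difference turned to 0.07 with quantile normalization. For dpc8 against NP in zone 1 the differences lay between -0.68 for Epcam and 0.09 for Krt19, where 0.0309% of genes were called, and no member had an unadjusted p under 0.05.

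In zones 2 and 3 no member was called between stages, and none of the 5 that passed the filter had an unadjusted p under 0.05. Cftr, fitted without the filter, differed from NP in zone 3 by -0.54 at both pregnant stages, with an unadjusted p of 0.0444 and adjusted p-values of 1 and 0.475, through replicate 1 of NP zone 3. The share of all genes called was 0.00772% for dpc8 and 2.66% for dpc16 in zone 2, and 0.0154% and 1.32% in zone 3. The change of the zone 1 to zone 3 difference from NP was tested as an interaction. For Sox9 this was -0.09 at dpc8 and -1.003 at dpc16, the latter with an unadjusted p of 0.0821, and for Spp1 it was -0.02 and -1.95. No member, Cftr included, was called or had an unadjusted p under 0.05, beside 0% of all genes called for dpc8 and 0.054% for dpc16. That Sox9 passed between zones 1 and 3 at NP and dpc8 and not at dpc16 is therefore not shown to be a change with stage.

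A wider list of 46 genes known from bile duct cells was read beside the 6. Of these 41 passed the filter, and 16 of them were called higher in zone 1 than in zone 3 averaged over the stages, with none lower, beside 2.7% of all genes called higher. Some of the 16, Muc1 and Ehf among them, reached 1 FPKM only in zone 1 and so passed the filter through that zone. With low values elsewhere, they could hardly have come out lower. The median difference of the 41 was 0.47, against 0.04 over all genes. Single stages called 5 at NP, 5 at dpc8 and 3 at dpc16, beside 0.525%, 0.679% and 0.78% of all genes, and with the block dpc16 called 5 beside 1.48%. Against zone 2 the count averaged over the stages was 9, beside 0.51%.

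Surface and junction proteins had the most calls, 6 of 9 tested. Cdh1, the E-cadherin that periportal hepatocytes also carry, differed most, by 4.42 ± 0.31 (limma, adjusted p = 6.89e-10), and held 9.89 to 55.3 FPKM in zone 1 and at most 1.47 in zone 3. Muc1, a mucin of the apical membrane, differed by 1.41 ± 0.22 (adjusted p = 0.00011), with 0.604 to 3.78 FPKM in zone 1 and at most 0.224 in zone 3. Spint1, an inhibitor of surface serine proteases, differed by 1.29 ± 0.23 (adjusted p = 0.000655). Like Epcam, it was at 0 in zone 3 except in replicate 1 of NP zone 3, where it stood at 2.57.

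Transport genes divided. Of 9 tested, 3 were called higher in zone 1 and the median of the 9 was -0.15. Aqp8, a water channel that hepatocytes share, differed by 2.78 ± 0.41, Atp1b1, a subunit of the sodium pump, by 1.23 ± 0.15, and Slc5a1, a sodium-glucose cotransporter, by 1.15 ± 0.16, with limma adjusted p-values of 6.87e-05, 5.38e-06 and 3.58e-05. Slc5a1 reached 0.545 to 2.35 FPKM in zone 1 and at most 0.289 in zone 3. Sctr, the receptor of secretin, the hormone that drives duct secretion, was at or near 0, at most 0.407 in NP zone 1.

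Among transcription factors 2 of 7 were called, Glis3 (1.61 ± 0.35, adjusted p = 0.00577) and Ehf (1.11 ± 0.20, adjusted p = 0.000859), by limma. Of 6 cilium and polycystic genes Bicc1 (1.56 ± 0.28, adjusted p = 0.000733) and Pkhd1, the fibrocystin gene (1.49 ± 0.25, adjusted p = 0.00044), were called. Of 7 Notch pathway genes Hes1, a transcriptional target of Notch (1.48 ± 0.27, adjusted p = 0.00105), Notch3 (0.94 ± 0.26, adjusted p = 0.0306) and Notch2 (0.47 ± 0.10, adjusted p = 0.00508) were called. None of the 3 other keratins, Krt8, Krt18 and Krt23, was called, and Krt8 and Krt18 are keratins of hepatocytes too.

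Over the 27 libraries the members correlated with each other to different degrees on the log2(FPKM + 1) scale, given here as a description across libraries that share zones, stages and depth. The highest Pearson correlations were those of Krt7 with Epcam (r = 0.84) and of Sox9 with Spp1 (r = 0.82), and the lowest was that of Krt7 with Spp1 (r = 0.39). Outside the members, the gene most like Krt7 was Spint1 (r = 0.87) and that most like Epcam was Cldn7 (r = 0.90), a claudin of tight junctions, followed by Spint1 and Slc5a1. Krt7, Epcam, Spint1 and Cldn7 stood at 1.97, 4.79, 2.57 and 2.93 FPKM in replicate 1 of NP zone 3. Spp1 and Sox9 stood at 0.601 and 0.155 there, and the weight of that library in these correlations was not tested. The gene most like Sox9 was Atp1b1 (r = 0.86), followed by Scara3 and Tstd1. For Spp1 it was Ntn4, a netrin of basement membranes (r = 0.86), followed by Sulf2 and Cbx6, and for Krt19 it was G6pc3 (r = 0.80), with Arhgef10 also among the 3 most alike. The mean of the 5 tested members was most like Scara3 (r = 0.89), followed by Bicc1, Sall2, Eno1 and Atp1b1.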

How the data were processed

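RNA of microdissected liver zones was measured in 27 libraries, made per the labels from 50 ng of total RNA after removal of ribosomal RNA. The authors trimmed reads with cutadapt, mapped them with HISAT2 2.1.0 to mm10, used the uniquely mapped ones and derived FPKM with Cuffdiff of Cufflinks 2.2.1 (tools from the submitters' processing notes and the study's methods). The deposited FPKM were used as they are, with groups and replicate numbers from the sample titles. Depth was estimated from the steps of low FPKM values in genes with 1 transcript, with 93.9% to 97.9% of low values within 0.15 of a whole step, and reads per gene follow from the longest transcript, so both are approximate.

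Genes with at least 1 FPKM in at least 3 libraries (12952 of 21823) were tested on log2(FPKM + 1), which understates changes of low genes, with limma 3.58.1 in R 4.3.3: 9 group means, a trended and robust variance, two-sided tests, Benjamini-Hochberg adjustment within each of 19 comparisons and a threshold of 0.05. Limma took the place of the study's Cuffdiff, which needs reads. Overlap of groups compares the 3 values of each. Same-numbered libraries deviated together at dpc16, where all 9 correlations of their deviations were over 0.1 (0.263 to 0.863), but in 4 of 9 cases at NP and 5 of 9 at dpc8. The study describes the replicates as independent experiments, and its experiments in general as done in different mice. Neither it nor the labels say that zones with the same number came from the same experiment or mouse. The dpc16 libraries were thus taken as paired from the data, and the block could be fitted only between zones. Zones 2 and 3 had the highest correlations at dpc16, 0.632 to 0.863. Their replicate 3 libraries both hold Y-linked and connective tissue genes. What these libraries share was not tested, so calls with the block rest on a pairing drawn from the same values.

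The members and gene lists were chosen with earlier results of these data known. All 6 members are named. Of the wider list, up to 3 genes per role and direction are named, those with the largest difference among genes called between zones 1 and 3 averaged over the stages, plus Pkhd1 and Sctr. Some genes that meet the naming rules are not reported here. Of each list of other cells the 2 genes with the highest mean FPKM are named, and further genes of these lists (Hal, Glul, Gpnmb, Trem2, Csf1r, Vsig4, Muc2, Upk2, Krt5, Trp63, Cdx2, Vil1, Reg3g, Pnlip and Prss2) were named after their values were seen. The genes most like each member were taken by Pearson correlation. Alternatives were the pseudocount, no filter, TPM scale, quantile normalization, only the groups compared, the replicate block, array weights, and leaving out replicates or the libraries with Y-linked genes. Leaving out replicate 1 of NP zone 3 besides, or alone for Cftr, was added after the data were seen. Python 3.11.15 drew the figures.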

Additional observations from a re-analysis of the deposited data

How the results depend on the processing

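The members called higher in zone 1 than in zone 3 were 1 at NP, 1 at dpc8 and none at dpc16 with all libraries. At NP they were 2 with array weights, without the libraries with Y-linked genes, and without these and replicate 1 of NP zone 3. At dpc8 they were 2 with a pseudocount of 0.1, on the TPM scale and without the libraries with Y-linked genes, 3 with the replicate block, with array weights and without replicate 1 of NP zone 3 besides, and 4 with only the groups compared. At dpc16 they were 1 with a pseudocount of 0.1 or quantile normalization, 2 with the replicate block and without the libraries with Y-linked genes, and 3 with array weights and without replicate 1 of NP zone 3 besides. Leaving out 1 replicate gave 1 to 2 at NP, the 2 without replicate 1 of zone 3, and 0 to 1 at dpc16, the 1 without replicate 3 of zone 3. Between zones 1 and 2, array weights called 1 member at dpc8 and 1 at dpc16, and leaving out both kinds of libraries called 4 averaged over the stages in place of 2. The 3 calls at dpc8 with the block were Sox9, Epcam (adjusted p = 0.0261) and Spp1 (adjusted p = 0.0453), where the numbers did not pair the libraries, and the block changed no other call of a member than those named here and for dpc16. Krt7 failed the filter without both kinds of libraries and in most fits of only the groups compared, and could not be counted there. The wider list, with 5, 5 and 3 calls at NP, dpc8 and dpc16, had 8, 8 and 5 with the replicate block and 8, 15 and 7 with array weights. At NP it had 3 with quantile normalization, 3 without both kinds of libraries and 1 with only the groups compared, and leaving out 1 replicate gave 2 to 4 at NP, the 2 without replicate 2 of zone 3, and 2 to 4 at dpc8, the 2 without replicate 3 of zone 1. The direction held for each of the 5 tested members, where it had a value, in the comparisons of zone 1 with zone 3 under all alternatives except when 1 replicate was left out at NP, where Krt7 ran from -0.0931 to 0.350 and Krt19 from -0.316 to 1.68. For dpc16 against NP in zone 1, Krt7 was 0.0734 with quantile normalization and ran from -0.328 to 0.0134 when 1 replicate was left out. Cftr, fitted without the filter, turned from -0.278 to 0.258 at NP without replicate 1 of NP zone 3, the 1 alternative run for it beside the fit itself. That library was the only one in zone 3 with Cftr, so the sign was then fixed in advance. The causes were not tested. Depth limits Cftr most, with at most about 40 reads in a zone 1 library.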
